A study of Mus musculus with 6 samples.

Results

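The merged transcript assembly of the P21 brainstem held 34632 loci. Of these, 10277 carried no gene name on any line and held only transcripts of a single exon. They made up 29.7% of the assembly, against 23985 loci with a gene name and 370 unnamed loci with at least 1 spliced transcript. These unnamed single-exon loci were taken from the deposited assembly by that rule alone, without use of fragment counts or FPKM. The assembly itself was built from sequenced reads, so a locus without a reference transcript is listed only where reads were found. RNA was read from 6 libraries of mouse brainstem at postnatal day 21. The 3 *Hoxa5* control pools were Hoxa5flox/flox;CMV-CreERT2-/- and the 3 *Hoxa5* cKO pools were Hoxa5flox/flox;CMV-CreERT2+/-. Both groups therefore carried the floxed alleles on both chromosomes, and both received tamoxifen from P1 to P4. Each library was 1 pool of RNA from 3 brainstems, and the CMV promoter drives the recombinase in many cell types rather than in *Hoxa5*-expressing neurons only. Replicate numbers are those of the deposited table counted from 1, and they name a library within its genotype.

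Assemblers such as Cufflinks join overlapping fragments into a transcript, and a stretch without splice junctions becomes a single-exon locus. Libraries of ribosome-depleted total RNA that are primed with random hexamers hold unspliced nuclear RNA beside mature mRNA, so introns of long genes, transcription beyond annotated ends and unannotated noncoding genes are all read in them. Many of the longest mammalian genes encode neuronal adhesion molecules, ion channels and synaptic proteins.

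For 4 loci that matter below, an annotated single-exon transcript of GENCODE M21 lies inside the unnamed locus on its strand. Sequence at 1 annotated end of each transcript is given here. All 4 are of the class TEC, transcripts that await experimental evidence. The first 3 lines give the last 300 bases of Gm43398 in XLOC_023478 (GRCm38, chr5:143397945-143398244, plus strand), of 2900064K03Rik in XLOC_023815 (chr5:49515825-49516124, minus strand) and of Gm42772 in XLOC_023810 (chr5:49408792-49409091, minus strand). The fourth gives the first 300 bases of Gm42617 in XLOC_023847 (chr5:51892915-51893214, minus strand), which starts 16 bases inside the 5′ end of that locus. Capitals mark AATAAA, the sequence of the polyadenylation hexamer, searched on the transcribed strand of these 4. The stretch of Gm42617 held none. The fifth gives 250 bases before and 30 bases from a RefSeq start of Slc35f3 (GRCm38.p6, chr8:126138875-126139154, plus strand), with the 30 bases in capitals. XLOC_030258 begins 1084 bases after that start. The assembled Slc35f3 locus starts a little upstream of it, at base 126139097, so some lower-case bases belong to that locus.
Gm43398: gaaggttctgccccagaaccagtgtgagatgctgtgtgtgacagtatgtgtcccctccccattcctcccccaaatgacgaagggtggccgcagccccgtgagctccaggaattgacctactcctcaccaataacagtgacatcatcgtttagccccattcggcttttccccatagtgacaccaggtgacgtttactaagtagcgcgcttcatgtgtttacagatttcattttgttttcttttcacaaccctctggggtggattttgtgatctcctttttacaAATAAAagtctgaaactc
2900064K03Rik: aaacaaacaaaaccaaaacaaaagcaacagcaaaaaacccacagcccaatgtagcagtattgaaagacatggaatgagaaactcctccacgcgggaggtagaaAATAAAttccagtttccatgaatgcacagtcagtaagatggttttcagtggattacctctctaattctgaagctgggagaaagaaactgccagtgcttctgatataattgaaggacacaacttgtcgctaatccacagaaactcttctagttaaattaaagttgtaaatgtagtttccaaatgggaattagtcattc
Gm42772: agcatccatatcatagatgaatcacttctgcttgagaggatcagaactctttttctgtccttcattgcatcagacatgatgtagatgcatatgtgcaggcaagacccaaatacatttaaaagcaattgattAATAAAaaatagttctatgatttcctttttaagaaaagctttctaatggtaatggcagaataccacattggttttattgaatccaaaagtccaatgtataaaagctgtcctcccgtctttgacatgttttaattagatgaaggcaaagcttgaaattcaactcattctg
Gm42617: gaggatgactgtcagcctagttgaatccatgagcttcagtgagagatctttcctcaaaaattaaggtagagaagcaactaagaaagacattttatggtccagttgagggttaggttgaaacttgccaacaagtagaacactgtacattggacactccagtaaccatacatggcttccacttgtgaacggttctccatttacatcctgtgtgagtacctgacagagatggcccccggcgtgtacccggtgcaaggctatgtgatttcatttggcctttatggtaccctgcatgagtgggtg
Slc35f3: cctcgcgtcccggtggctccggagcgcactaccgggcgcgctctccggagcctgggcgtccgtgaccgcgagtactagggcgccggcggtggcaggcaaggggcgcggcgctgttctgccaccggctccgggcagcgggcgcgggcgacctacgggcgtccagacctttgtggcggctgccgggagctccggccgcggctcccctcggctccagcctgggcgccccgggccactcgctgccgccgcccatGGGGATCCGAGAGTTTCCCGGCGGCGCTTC
The hexamer began 18 bases before the end of Gm43398, and XLOC_023478 ended 1 base beyond that transcript. In 2900064K03Rik and Gm42772 it began 197 and 169 bases before the end, and the unnamed loci ran on for 6590 and 1483 bases past them. Of 3135 single-exon TEC transcripts of at least 300 bases, 21.3% held AATAAA in their last 40 bases and 36.8% in their last 300. In their first 300 bases, 18.9% held it. Across all the unnamed single-exon loci, 70 (0.681%) had a 3′ end within 50 bases of an annotated 3′ end on their strand, and 121 (1.18%) had a 5′ end within 50 bases of an annotated 5′ end.

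The unnamed single-exon loci were shorter than most named transcripts and covered 1196 bases at the median, with quartiles of 805 and 2239 bases. The median named locus held 2614 exon bases. The shortest, XLOC_005995 on chromosome 12, spanned 82 bases, and the longest, XLOC_023846 on chromosome 5, spanned 72447. In all, 340 loci reached 10000 bases. A strand had been assigned to 10266 of the 10277, evenly to plus (5124) and minus (5142). Every one carried class code u, which marks transcripts that matched no reference transcript.

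Their levels fell in a narrow band. The mean FPKM over the 6 libraries had a median of 0.961 and quartiles of 0.681 and 1.62, whereas named loci had a median of 2.34 and quartiles of 0.0698 and 11.4. No unnamed single-exon locus was at 0 in all libraries, while 15.4% of the named loci were. A named locus can come from the reference annotation, whereas an unnamed one enters the assembly only where reads were assembled. The absence of unnamed loci at 0, and a floor under their levels, therefore follow from how these loci were found. In fragments, the median locus held a mean of 12.2 per library. At the upper end, 1572 loci reached a mean of 50 fragments and 48 reached 1000. The 100 loci with the most fragments held 26.7% of all the fragments assigned to unnamed single-exon loci. Depth limits what can be said of most of them, and 6165 (60.0%) passed the filter on low counts.

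**Figure D1:**
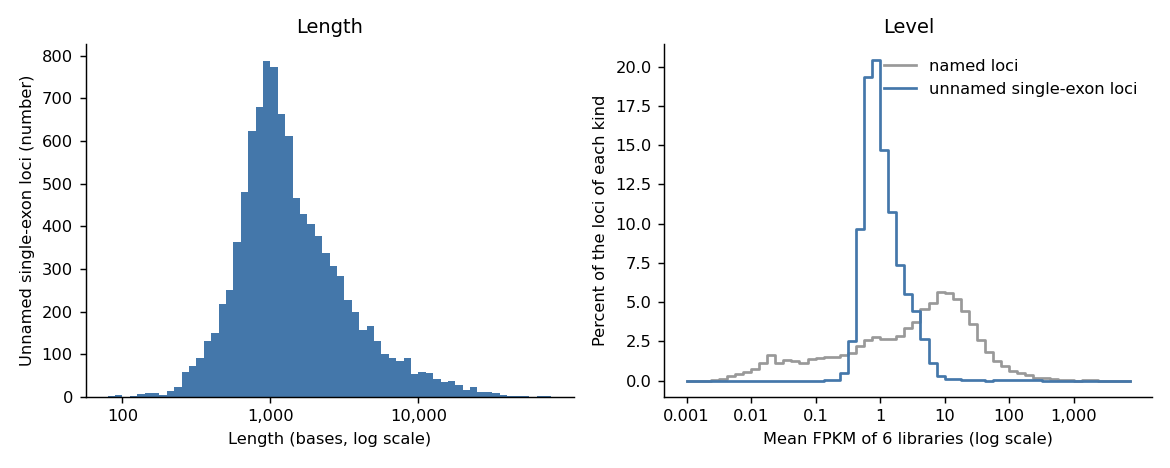
Left, number of the 10277 unnamed single-exon loci by length in bases on a log scale. Right, percent of loci of each kind by mean FPKM of the 6 libraries on a log scale, for unnamed single-exon loci (blue) and named loci (grey, with a further 15.4% at 0 not drawn). Lengths centre on 1196 bases, and levels of the unnamed loci crowd around 0.961 FPKM while named loci spread over several orders of magnitude. Unnamed loci are listed only where reads were assembled, which sets a floor under their levels.

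Most of these loci lay in or beside a named locus. Within 20000 bases of one lay 7086 of the 10277, or 69.0% (95% Wilson interval 68.0% to 69.8%), and 18.4% lay farther than 100000 bases away. The interval takes the loci as independent, which they are not, since most lie in runs. Of the 7086, 5650 (79.7%) were on the strand of their nearest named locus. A further split by place showed 3880 inside a named locus on its strand and only 20 inside on the other strand. Downstream of the named locus, 1411 lay on its strand and 237 on the other. Upstream the order turned round, with 359 on its strand and 1072 on the other. Same-strand loci downstream began a median of 3341 bases away. A named locus that contained such loci was long, with a median span of 100606 bases over 390 loci, against 14679 bases for all named loci.

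**Figure D2:**
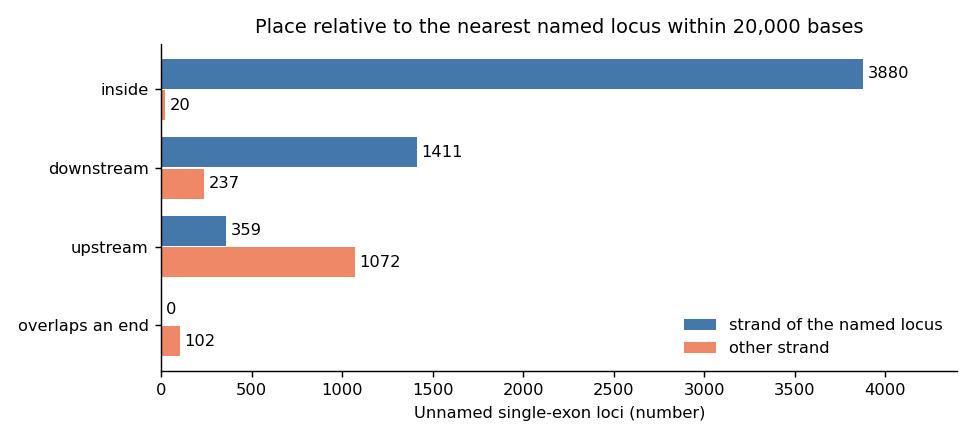
Number of unnamed single-exon loci (horizontal axis, from 0) by their place relative to the nearest named locus within 20000 bases, for the strand of the named locus (blue) and the other strand (orange). Loci inside or downstream were mostly on the strand of the named locus, and loci upstream were mostly on the other strand.

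The more recent GENCODE M21 annotation of the same genome build placed 5183 of the loci (50.4%) in an intron on their strand, 903 (8.79%) over an exon, 418 (4.07%) antisense to a gene and 3773 (36.7%) in no gene. Of all 10277, 5739 lay within a single annotated gene on their strand, and 845 genes hosted them. Protein-coding genes hosted 4148 and lincRNA genes 822. Few hosts held many: 72 genes with at least 20 loci each held 3387 of them, and these 72 had a median span of 437662 bases. *Lsamp*, which encodes a neural adhesion molecule, held 146 loci that together covered 1243941 bases. It was followed by *Lrrc4c* with 145, *B3galt1* with 139, *Ank2*, which encodes an ankyrin of the membrane skeleton, with 115, and *Hdac9*, a histone deacetylase gene, with 103. The imprinted *Snrpn*-*Snurf* locus was the nearest named locus of 128, of which 93 lay within 20000 bases and on its strand. The loci came in runs, since 7825 (76.1%) had another within 5000 bases on the same strand.

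The loci with the most fragments were long stretches of this kind. XLOC_011129 (chr16:40339753-40409448, plus strand), in an intron of *Lsamp*, held 4405, 4583 and 4968 fragments in the control libraries and 4446, 4920 and 4750 in the cKO libraries. The groups overlapped, and the log2 fold change was 0.02 ± 0.04 (SE, 3 against 3 libraries). XLOC_023846 and XLOC_023847 follow each other on the minus strand of chromosome 5, separated by 988 bases, between *Ppargc1a*, a transcriptional coactivator gene, and *Dhx15*, which encodes an RNA helicase. Together they covered 143602 bases. XLOC_023847 held 3166, 3146 and 3414 fragments in control and 2981, 3518 and 3709 in cKO, and XLOC_023846 held 2648, 2780 and 3101 in control and 2498, 2935 and 3153 in cKO. Neither pair of groups parted. GENCODE M21 has no gene over XLOC_023846. Further loci of this rank lay in *Lrrtm4*, *Frmd4a* and *Nrg1*, and downstream of *Slitrk1* and of *Kcna1*, the gene of a voltage-gated potassium channel. Among the 15 loci with the most fragments, 13 were not called, and their log2 fold changes ran from -0.09 to 0.14. The other two lay in *Kcnip4*.

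The total level of the unnamed single-exon loci was compared between genotypes first. They took 3.48%, 3.55% and 3.64% of the fragments of the control libraries and 3.44%, 3.64% and 3.78% of the cKO libraries. The means were 3.56% ± 0.0817 (SD, n = 3) and 3.62% ± 0.171, and the groups overlapped (two-sided exact permutation p = 0.6, where 3 against 3 cannot go below 0.1). The difference of 0.0618 percentage points turned to -0.0178 without cKO replicate 3. That library had the most fragments of *Rn45s*, the ribosomal RNA precursor, with 154479 against 36901 to 71963 in the other five. With *Rn45s* and other abundant noncoding RNA left out of the total, the difference was 0.0744 points (exact permutation p = 0.6).

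Several properties of the libraries bear on the comparison locus by locus. The libraries held 12034613 to 13202707 fragments. The *Hoxa5* locus itself held 202, 337 and 77 fragments in control and 279, 57 and 63 in cKO, so the groups overlapped and these counts did not follow the labels. In the paper, RT-qPCR on dissected parts of the brainstem gave a much lower *Hoxa5* level in cKO after the same tamoxifen treatment. The counts here are per locus, and loss of the floxed part in each library was not tested. The 6 brainstem neuron markers summed to 532 to 567 CPM (fragments scaled to a common library size with TMM factors) in control and 560 to 602 in cKO, with 0 of 6 called, and forebrain markers stayed at 2.76 to 4.50 CPM. Markers of cerebellar neurons moved with genotype. Many of them, such as *Gabra6*, *Gabrd*, *Car8* and *Itpr1*, are genes that the paper reported as lower in cKO from these same samples. The fall of these lists was therefore known beforehand and is no independent measure. The 8 granule neuron markers summed to 411 to 734 CPM in control and 193 to 223 in cKO, with 7 of 8 called lower, and the 7 Purkinje cell markers summed to 509 to 789 in control and 268 to 330 in cKO, with 7 of 7 called lower. Control replicate 1 was highest for both lists, and cKO replicate 1 held almost no fragments of 4 Y-linked genes, with 0.250 CPM against 84.4 to 131 in the others. In such bulk samples, fewer cells of a type and less RNA per cell cannot be told apart.

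Across the whole table, 0.503% of the 21854 tested loci were called lower in cKO and 0.0275% higher (edgeR's quasi-likelihood test, Benjamini-Hochberg adjusted p under 0.05). Of the 6165 tested unnamed single-exon loci, 17 were called lower, or 0.276%, and 0 higher. At an unadjusted p under 0.05, 177 (2.87%) were lower and 237 (3.84%) higher, beside 4.03% and 2.91% of all tested loci. DESeq2 called 10 lower (0.162%) and 0 higher, beside 0.522% and 0.0183% of all tested loci. Among named loci, edgeR called 0.604% lower and 0.039% higher. At a mean of at least 50 fragments the shares were close, with 11 of 1572 unnamed single-exon loci (0.7%) and 90 of 12537 named loci (0.718%). Of those 11, however, 6 lay in *Kcnip4* and 3 in *Pde4b*. Pieces of 1 gene are not separate changes, so these shares do not compare how often separate genes changed. The median log2 fold change was 0.05 over the tested unnamed single-exon loci, 0.00 over all tested loci and 0.05 over unnamed spliced loci, and 57.6% of the tested unnamed single-exon loci lay above 0. The highest group, those with a mean of at least 100 fragments, had 66.8% above 0. The median log2 CPM of the tested unnamed single-exon loci at all depths was also centred on the mean of the 6 libraries. It was highest in cKO replicate 3 at 0.11 and lowest in control replicate 1 at -0.05, with the other libraries between -0.04 and 0.04.

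The 17 called loci fell into a few stretches. There were 6 in the first intron of *Kcnip4*, 3 in *Pde4b* and 2 in *Slc4a4*, and 1 each beside or in *Grm4*, *Grid2ip*, *St8sia5*, *Gm2694* and *Slc35f3*. The remaining one lay in no gene. In all 17 the ranges of the groups did not overlap, a state that 4.93% of the tested unnamed single-exon loci and 6.54% of all tested loci showed in that direction. With cKO above control the shares were 6.68% and 5.61%. The highest value was in control replicate 1 for 15 of the 17 and the lowest in cKO replicate 1 for 14. Without control replicate 1, 4 of the 17 were called, and without cKO replicate 1, 10 were. The 4 that were called with each library left out in turn were XLOC_013339 in *Grm4*, XLOC_020917 in *Pde4b*, XLOC_022991 in *Slc4a4* and XLOC_029900 next to *Gm2694*. The part of the cerebellar markers in these falls was not tested.

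**Figure D3:**
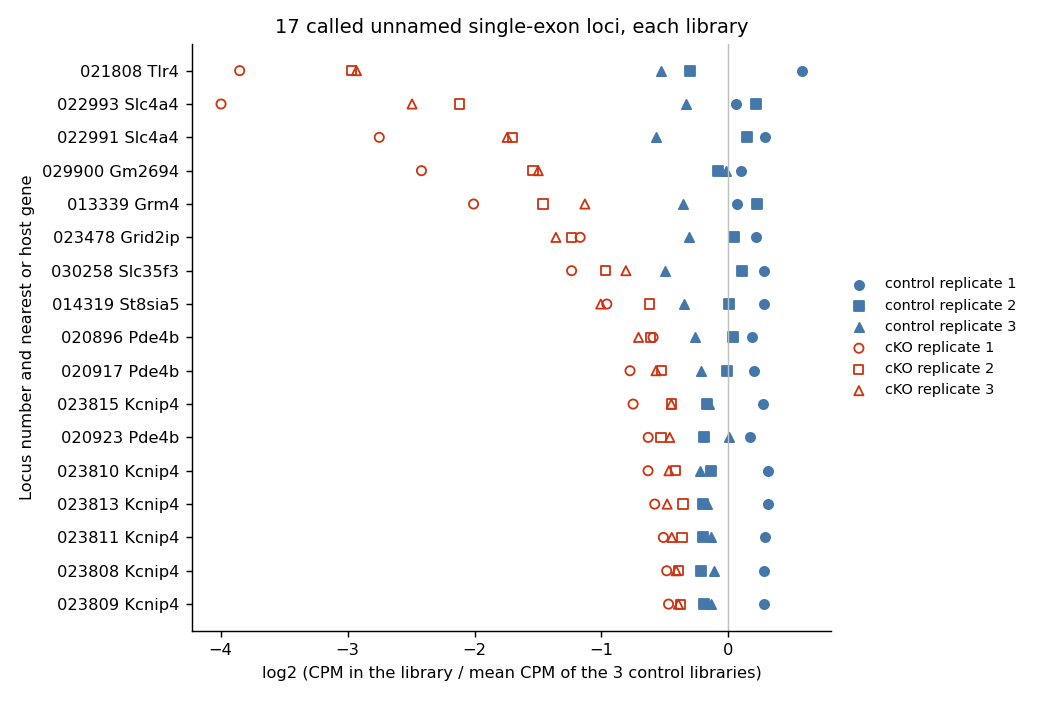
The 17 called unnamed single-exon loci (rows, with the gene that hosts or neighbours each) and their level in each library as log2 of the CPM over the mean CPM of the 3 control libraries. Filled blue symbols are control and open red symbols cKO libraries, and all cKO values lie left of all control values in each row.

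*Kcnip4* encodes a calcium-binding partner of Kv4 potassium channels. The assembly's own *Kcnip4* locus, on the minus strand of chromosome 5, starts at base 49285659, whereas the GENCODE M21 gene starts farther upstream at base 49524907. Its first intron, in 1 transcript 1014880 bases long, held 8 unnamed single-exon loci that covered 94.0% of a stretch of 220475 bases. The one nearest to the assembled locus and longest, XLOC_023808 (chr5:49300570-49363959, minus strand), held 4298, 3070 and 3557 fragments in control and 2483, 2879 and 2765 in cKO. Control replicate 1 was the highest, and control replicate 2 stood only slightly above cKO replicate 2. Its level went from 290 ± 54.3 CPM in control to 216 ± 7.26 CPM in cKO (SD over 3 libraries), and the log2 fold change was -0.43 ± 0.09 (SE, edgeR adjusted p = 0.0321). XLOC_023815, which holds the 2900064K03Rik transcript shown above and lies nearest to the gene start among the called loci, held 844, 625 and 681 fragments in control and 407, 546 and 530 in cKO. Its log2 fold change was -0.54 ± 0.10 (edgeR adjusted p = 0.0247).

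XLOC_023810, the locus with the Gm42772 transcript, held 1715, 1263 and 1282 fragments in control and 876, 1105 and 1038 in cKO, with a log2 fold change of -0.50 ± 0.10. The other called loci of the intron, XLOC_023809, XLOC_023811 and XLOC_023813, changed by -0.41, -0.44 and -0.47. With a ninth locus that overlaps the gene start, all 9 lay below 0, between -0.34 and -0.76, and the groups did not overlap in 8 of them. The assembled *Kcnip4* locus held 619, 598 and 699 fragments in control and 588, 649 and 585 in cKO, so that its groups overlapped, with a log2 fold change of -0.07 ± 0.06. The difference between XLOC_023808 and that locus was itself called (-0.34 ± 0.07, limma adjusted p = 0.00486). Without control replicate 1 none of the 6 was called, and their log2 fold changes were -0.27 for XLOC_023808, -0.25 for XLOC_023809, -0.32 for XLOC_023810, -0.27 for XLOC_023811, -0.29 for XLOC_023813 and -0.38 for XLOC_023815. None of the 6 was called by DESeq2, whose adjusted p ran from 0.232 for XLOC_023815 to 0.701 for XLOC_023813, and over all alternatives the adjusted p of XLOC_023808 ran from 0.000141 to 0.673.

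*Pde4b* encodes a phosphodiesterase that degrades cyclic AMP. It hosted 32 unnamed single-exon loci, of which 25 were tested, 23 lay below 0 and 12 had an unadjusted p under 0.05. XLOC_020917 (chr4:102207449-102226908, plus strand), in the third intron, held 687, 596 and 558 fragments in control and 343, 443 and 418 in cKO. Every control library lay above every cKO library. Its level fell from 49.0 ± 7.07 to 31.9 ± 2.86 CPM, a log2 fold change of -0.62 ± 0.09 (edgeR adjusted p = 0.00338). XLOC_020896 in the first intron held 149, 135 and 118 fragments in control and 85, 91 and 83 in cKO, and XLOC_020923 in the third held 234, 183 and 227 in control and 132, 154 and 157 in cKO. Both were called, at log2 fold changes of -0.63 ± 0.14 and -0.54 ± 0.11. Each lost its call in 5 of the 6 fits with 1 library left out. DESeq2 called XLOC_020923 (adjusted p = 0.0376) but not XLOC_020896 (adjusted p = 0.0762). The named *Pde4b* locus held 1899, 1863 and 2015 fragments in control and 1851, 1954 and 1844 in cKO, which overlap. Each of these 3 loci fell relative to it, by -0.58 for XLOC_020917, -0.59 for XLOC_020896 and -0.50 for XLOC_020923 (limma adjusted p = 0.000143, 0.0412 and 0.0412). Of 11 alternative fits, the difference was called in 11 for XLOC_020917, 6 for XLOC_020896 and 7 for XLOC_020923.

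**Figure D4:**
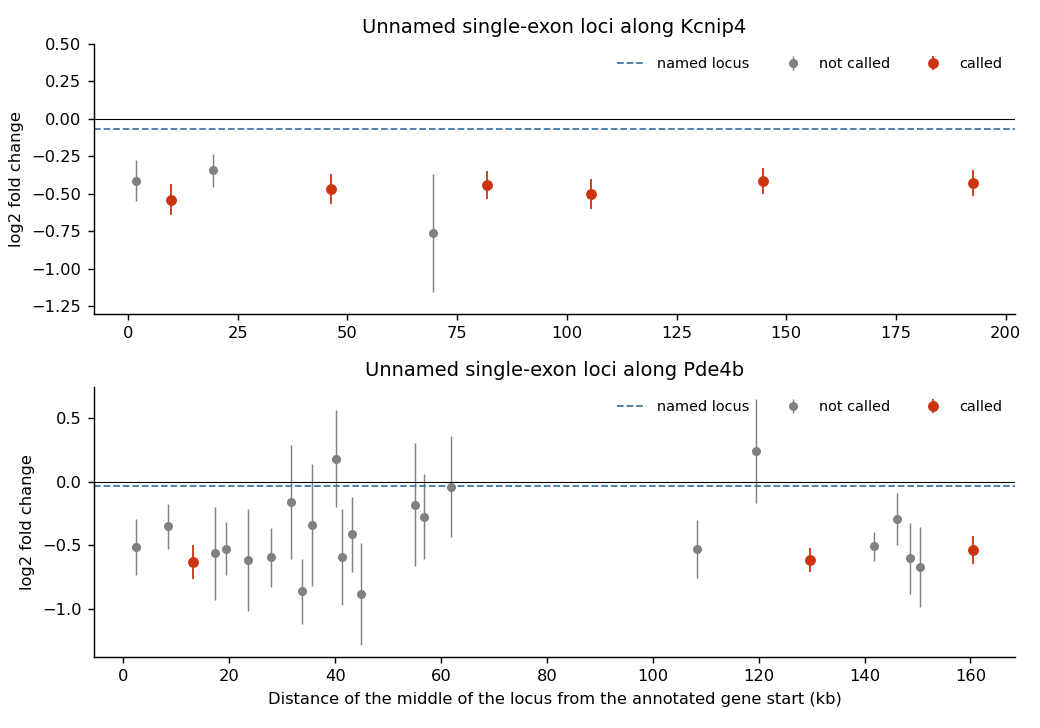
Log2 fold change (cKO over control) of each tested unnamed single-exon locus along *Kcnip4* (top) and *Pde4b* (bottom), by distance in kb of its middle from the annotated gene start. Points with SE bars are loci, red where called, the dashed line is the named locus of the assembly and the solid line is 0. All 9 *Kcnip4* points and 23 of 25 *Pde4b* points lie below 0, while both named loci lie near it.

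*Slc4a4* encodes a sodium bicarbonate cotransporter. XLOC_022991 (chr5:88830742-88834749, plus strand) held 67, 61 and 40 fragments in control and 8, 18 and 17 in cKO. Every cKO library had under 20 fragments and every control library at least 40. The log2 fold change was -1.96 ± 0.29 (edgeR adjusted p = 0.00309), from 4.49 ± 1.30 to 1.13 ± 0.401 CPM. Next to it, XLOC_022993 held 17, 19 and 14 fragments in control and 1, 4 and 3 in cKO, with a log2 fold change of -2.59 ± 0.48. It was called with only 1 of the 6 libraries left out in turn, control replicate 3, and DESeq2 gave it no adjusted p. XLOC_022990, on the other side, held 47, 31 and 19 in control and 3, 16 and 7 in cKO, and DESeq2 called it while edgeR did not (adjusted p = 0.0258 for DESeq2 and 0.0685 for edgeR). All 3 lie in the second intron of the assembled *Slc4a4* transcripts, 121833 bases long, where GENCODE M21 has no gene. The named *Slc4a4* locus held 6276, 6561 and 6700 fragments in control and 5844, 6574 and 6721 in cKO, with overlapping groups. Relative to it, XLOC_022991 fell by 1.83 on the log2 scale, and XLOC_022990 by 1.77 (limma adjusted p = 3.91e-06 and 0.00486). The difference of XLOC_022993 from it, -2.03 ± 0.51, was not called (limma adjusted p = 0.0831).

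In *Grm4*, a glutamate receptor gene known from the parallel fibre terminals of cerebellar granule neurons, XLOC_013339 (chr17:27509456-27511406, minus strand) lay in the first intron. It held 73, 82 and 59 fragments in control and 17, 27 and 33 in cKO, a log2 fold change of -1.47 ± 0.23 (edgeR adjusted p = 0.00351). Here the named locus was called too, at -0.70, and the difference between them was not called (-0.73 ± 0.20, limma adjusted p = 0.148). XLOC_029900 (chr8:87532223-87535742, plus strand) begins 274 bases after the end of *Gm2694*, a lincRNA gene, and held 64, 57 and 64 fragments in control against 11, 22 and 22 in cKO. Its log2 fold change of -1.74 ± 0.23 had the smallest adjusted p of the 17 (edgeR, 0.00101). *Gm2694* changed by -1.18, and the difference of -0.52 was not called.

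XLOC_023478 (chr5:143395298-143398245, plus strand), whose end is shown above as Gm43398, lies 816 bases downstream of *Grid2ip*, which encodes a scaffold of Purkinje cell synapses. It held 72, 64 and 54 fragments in control and 27, 28 and 25 in cKO, and fell 2.37-fold. Without control replicate 1 it was not called (edgeR adjusted p = 0.0552). *Grid2ip* held 172, 129 and 128 fragments in control and 89, 90 and 114 in cKO, and its log2 fold change of -0.55 was not called (edgeR adjusted p = 0.176). The difference between XLOC_023478 and *Grid2ip* was not called either (-0.64 ± 0.20, limma adjusted p = 0.310). XLOC_014319, on chromosome 18 and 57 bases downstream of the assembled *St8sia5*, a ganglioside sialyltransferase gene, held 211, 176 and 148 fragments in control and 88, 121 and 90 in cKO. GENCODE M21 counts its bases in part as *St8sia5* exon. It fell 1.79-fold, and *St8sia5* itself was called at -0.53. The difference between them was not called (-0.30 ± 0.13, limma adjusted p = 0.636).

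XLOC_030258 (chr8:126140209-126147125, plus strand) lies in the second intron of the assembled *Slc35f3*, a solute carrier gene, 1084 bases from the promoter start shown above and where GENCODE M21 has no gene. It held 131, 117 and 83 fragments in control and 45, 59 and 64 in cKO, with a log2 fold change of -0.98 ± 0.19 (edgeR adjusted p = 0.0233). The named *Slc35f3* locus held 285, 295 and 319 in control and 227, 281 and 323 in cKO, which overlap, and the difference from it was called (-0.82 ± 0.16, limma adjusted p = 0.00486). XLOC_021808 (chr4:67710302-67711796, minus strand) was the called locus farthest from a named one, 867506 bases from *Tlr4*, the receptor of bacterial lipopolysaccharide. It held 22, 12 and 11 fragments in control and 1, 2 and 2 in cKO. Counts this low gave a log2 fold change of -3.08 ± 0.57, and DESeq2 gave it no adjusted p. DESeq2 called 2 loci that edgeR did not, XLOC_022990 above and XLOC_012300 in *Pde10a*, a phosphodiesterase gene. The latter held 1194, 1046 and 1070 fragments in control and 715, 868 and 1006 in cKO (DESeq2 adjusted p = 0.0371, edgeR adjusted p = 0.0956). Over the alternatives its adjusted p ran from 0.00479 to 0.771.

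The rule asked whether changes follow the neighbour. Over 4093 tested unnamed single-exon loci with a tested named locus within 20000 bases, the log2 fold changes of the pair correlated weakly (Pearson r = 0.21, Spearman rho = 0.14), and 54.2% of the pairs shared the sign. The pairs share the 6 libraries and many share the named locus, so the values are descriptions across loci. Named loci and their nearest named locus gave r = 0.14 over 10385 pairs, and 0.18 over the 2988 pairs in which the first had a mean under 100 fragments. The value differed by place and strand. Pearson r was 0.24 inside on the same strand (2554 pairs), 0.30 downstream on the same strand (671), 0.12 upstream on the same strand (181), 0.09 upstream on the other strand (522) and -0.08 downstream on the other strand (89). In the same order, Spearman rho was 0.15, 0.20, 0.12, 0.06 and -0.08. Without the neighbours of called named loci, r over all places was 0.18 (4059 pairs). Pearson r also differed with depth, from 0.17 below a mean of 20 fragments (1895 pairs) to 0.39 from a mean of 100 (332 pairs). Outside the named locus and with a mean of at least 50 fragments, r was 0.44 on the same strand (158 pairs) and 0.16 on the other (81).

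**Figure D5:**
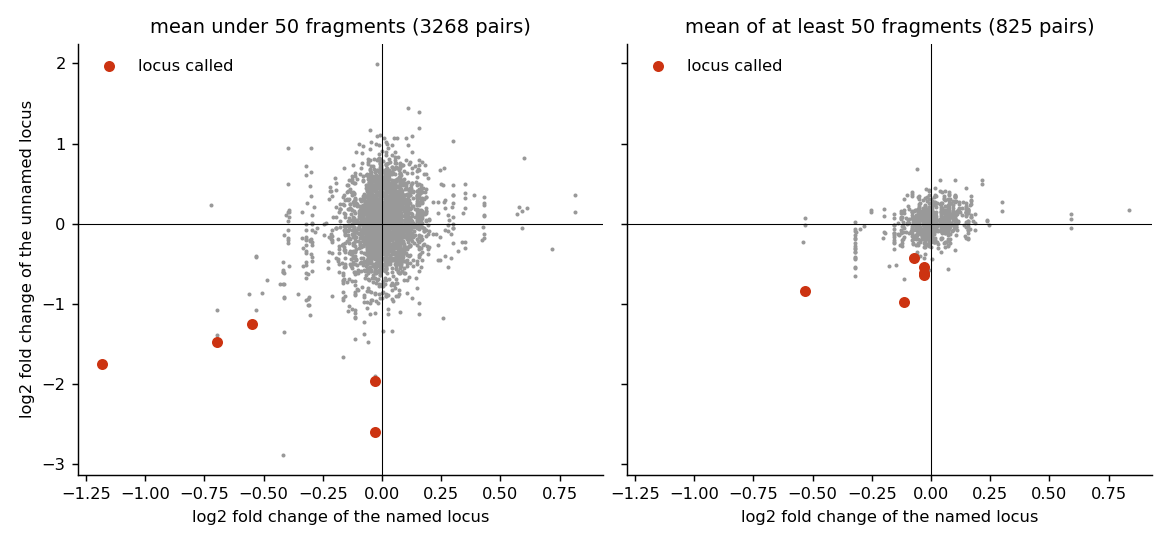
Log2 fold change (cKO over control) of each unnamed single-exon locus (vertical axis) against that of its nearest named locus within 20000 bases (horizontal axis), for loci with a mean under 50 fragments (left, 3268 pairs) and of at least 50 (right, 825 pairs). Red points are called loci, 5 of them at the left and 6 at the right, and several of them lie far below named loci that stand near 0.

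Of the 99 called named loci, 16 had an unnamed single-exon locus within 20000 bases, and 34 of those neighbours were tested, around 12 named loci that were all called lower. On the strand of the named locus, 21 of 28 lay below 0 with a median of -0.28, and 3 were called. On the other strand, 3 of 6 lay below 0. The 4059 neighbours of named loci that were not called had a median of 0.02. Around *St8sia5*, XLOC_014320 on its strand held 54, 57 and 36 fragments in control and 24, 27 and 19 in cKO, a log2 fold change of -1.07 that was not called (edgeR adjusted p = 0.0685), whereas XLOC_014651 and XLOC_014652 on the other strand changed by 0.07 and -0.01. Inside *Tiam1*, an activator of Rac, XLOC_012128 and XLOC_012130 gave 0.50 and 0.03 while the named locus was called at -0.40. Inside *Gas7*, XLOC_003950 and XLOC_003949 gave -0.26 and 0.11 beside a called named locus at -0.30, and inside *Dgkz*, a diacylglycerol kinase gene, XLOC_017878 gave -0.30 beside -0.33. None of these unnamed loci passed the test.

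Tested directly, 9 of the 4093 pairs (0.22%) had an unnamed single-exon locus that fell relative to its neighbour, and 0 rose (limma on the log2 CPM difference, adjusted p under 0.05). At an unadjusted p under 0.05 there were 266 pairs (6.5%) in either direction. Beside the pairs in *Slc4a4*, *Pde4b*, *Kcnip4* and *Slc35f3* given above, 2 pairs involved *Gm3985*, a lincRNA gene. Both unnamed loci lie on the strand opposite to *Gm3985*. XLOC_030531 is in an intron of *Nrg1*, and XLOC_030535 is partly over *Nrg1* exon. There XLOC_030535 held 190, 185 and 275 fragments in control and 154, 235 and 237 in cKO and XLOC_030531 held 186, 189 and 224 in control and 168, 225 and 232 in cKO, so neither moved apart. *Gm3985* held 40, 50 and 50 in control and 67, 76 and 68 in cKO, and its own log2 fold change of 0.59 was not called (edgeR adjusted p = 0.171).

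Loci next to each other also shared part of their change. Consecutive tested loci on 1 strand that were at most 5000 bases apart gave r = 0.21 over 3210 pairs, and r = 0.47 over the 608 pairs in which both had a mean of at least 50 fragments. Pairs more than 100000 bases apart gave r = -0.04 over 515 pairs. When loci within 1 GENCODE gene were summed, a step added after the values had been seen, 584 sums were tested, and 6 were called lower (1.03%) and 1 higher (0.171%), beside 0.475% and 0.016% of all features in that fit. *Cacna1e*, which encodes an R-type calcium channel, held 185, 205 and 156 summed fragments in control and 87, 106 and 88 in cKO over 13 loci, a log2 fold change of -0.96 ± 0.14 (edgeR adjusted p = 0.00491). Its named locus changed by -0.16, and the difference was called (limma adjusted p = 0.0107). The sums over *Pde4b* (-0.54), *Kcnip4* (-0.45), *Grm4* (-1.35), *Gramd1b* (-0.87) and *Wscd2* (-0.70) were also lower.

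Only *Ptprd*, a synaptic adhesion receptor with a phosphatase domain, was called higher. Its 79 loci summed to 672, 697 and 812 fragments in control and 855, 956 and 900 in cKO. The groups did not overlap, and the log2 fold change was 0.32 ± 0.06 (edgeR adjusted p = 0.0197). Of 309 such sums with a tested named locus, 5 fell (1.62%) and 1 rose (0.324%) relative to it. The named *Ptprd* locus held 7890, 7651 and 8639 fragments in control and 7684, 7871 and 7760 in cKO and changed by -0.05, and the difference between them was called (limma adjusted p = 0.0274). The call held with 2 of the 6 libraries left out in turn, and the calls of *Pde4b*, *Cacna1e* and *Grm4* with all 6. Across 309 host genes with a tested named locus, sum and named locus correlated with r = 0.34 (Spearman rho = 0.23). Of the 72 hosts with at least 20 loci, 60 had a sum within 0.2 of 0 on the log2 scale. The *Lsamp* sum, for example, ran from 43123 to 48295 fragments in control and 43552 to 48557 in cKO.

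Near the *Hox* genes, which pattern the hindbrain along its length, 3 unnamed single-exon loci were tested. XLOC_024837 (chr6:52159144-52159949, plus strand), inside the assembled *Hoxa2* locus and in an intron of *Hotairm1*, a noncoding gene of the same cluster, held 13, 9 and 16 fragments in control and 11, 14 and 10 in cKO. XLOC_017669, over exons of *Haglr* in the *Hoxd* cluster, held 24, 26 and 22 in control and 25, 28 and 21 in cKO. XLOC_010771, near *Hoxc4*, held 11, 12 and 10 in control and 13, 10 and 10 in cKO. The groups overlapped at all 3, with log2 fold changes between -0.11 and 0.04, and none was called. These loci had few fragments, so the SE of the log2 fold changes ran from 0.25 to 0.37.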

How the data were processed

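Per the labels, stranded ribosome-depleted total RNA libraries were sequenced from 6 pools of 3 brainstems at P21. The submitters' processing notes name CASAVA 1.6 (base calls), TopHat2 2.0.9 (alignment, mm10), Cufflinks 2.2.0 (assembly) and Cuffdiff (quantification), all run by the authors. The deposited table gives fragment counts per locus as whole numbers and FPKM scaled between libraries. Whether counting used strand is not given in the sources used here, so a locus and an overlapping one on the other strand may share reads. Other columns of the table were not used. Its condition names give the genotype of a library and its replicate numbers are not tied to a pool. Loci were taken from the deposited assembly and placed by GENCODE M21 and RefSeq (GRCm38).

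Counts were fitted over all loci with edgeR 4.0.16 (TMM, filterByExpr, quasi-likelihood, R 4.3.3). Pairs were compared with limma 3.58.1 on log2 CPM with a prior count of 2. Alternatives used DESeq2 1.42.0, limma on log2(FPKM + 1) and log2(FPKM + 0.1) at an FPKM of at least 1 in 3 libraries, other factors and filters, the replicate number as a block and each library left out. With 1 library left out, the pair that remains shares the pooled spread. Sums per host gene were added later. Fits were tested on simulated data. Intervals cover counting error only. As nothing says that pools came from separate litters, p-values measure the spread between pools. The same replicate number in both genotypes did not pair libraries: deviations from the group means correlated at 0.03, -0.08 and 0.05.

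The loci, lists and rules were chosen with earlier results of these data known. Loci were named if called by edgeR or DESeq2, among the 15 with the most fragments or the 10 with the smallest p, near a called named locus (up to 15) or a *Hox* gene, longest or shortest, or in a called pair. A result on 1 of these is not reported here. Host genes other than those of named loci were picked with their values in view. The 5′ ends of members could not be read without a genome, so ends of annotated transcripts are shown.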

Additional observations from a re-analysis of the deposited data

How the results depend on the processing

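The count of 17 called loci was 19 with library size alone or the replicate block and 17 with upper-quartile factors, and those fits kept all 17. It was 10 with DESeq2 (8 of the 17), 6 at a minimum of 50 fragments in 3 libraries, where 1626 were tested, and 34 without a filter. limma on log2(FPKM + 1) and on log2(FPKM + 0.1) called 0, with 367 and 347 at an unadjusted p under 0.05, and called 0 and 1 among all loci. Leaving out 1 library gave 4 (without control replicate 1) to 23 (without control replicate 3). Over 235 refits of single called loci, 143 stayed called, 92 did not and 0 turned round. The median log2 fold change stayed above 0 in each, from 0.01 when cKO replicate 3 was left out to 0.08 when cKO replicate 1 was. The correlation with the neighbour moved to 0.46 at 50 fragments, 0.11 without a filter, 0.14 and 0.13 with limma at the smaller and larger pseudocount, 0.17 outside named loci and 0.13 to 0.22 with 1 library left out. The difference in share ran from -0.0178 to 0.153 points with 1 library left out. The share of loci near a named locus was 59.1% at 5000 bases and 75.6% at 50000, 63.4% for loci with 1 name and 59.1% on the same strand. The 9 called pairs became 14 under the replicate block, which moved no other count by over 1.5 times, and 3 (without control replicate 1) to 19 (without control replicate 3). The causes were not tested. The replicate numbers name libraries only. Depth limits most loci, since the median holds 12.2 fragments.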

Other observations

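Around some named loci that were not called, most unnamed single-exon loci lay on 1 side of 0, with none called. Of all tested unnamed single-exon loci, 57.6% lay above 0, and of those with a mean of at least 100 fragments 66.8% did. Of 75 tested loci nearest to *Dpp10*, a potassium channel subunit gene, 66 lay above 0 with a median log2 fold change of 0.15, and the fragments summed over all 85 loci nearest to it, tested or not, were 6220, 6369 and 7328 in control and 6569, 7683 and 7539 in cKO. Of 86 nearest to *Snrpn* and *Snurf*, 61 lay above 0 with a median of 0.16, at sums over all 128 of 3398, 3797 and 4284 in control and 4072, 4443 and 4514 in cKO. Scaled to CPM, the *Dpp10* sums overlapped between genotypes (510 to 554 in control and 548 to 595 in cKO), whereas the *Snrpn* and *Snurf* sums did not (278 to 324 in control and 340 to 356 in cKO). These groups were picked after their values were seen, and the sums were not tested. Of single tested unnamed single-exon loci, 6.68% had every cKO library above every control library.

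In *Pde10a*, 26 of 28 tested loci lay below 0, and the sum gave a log2 fold change of -0.33 beside -0.32 for the named locus, neither called (edgeR adjusted p = 0.111 and 0.0684). In *Fgf13*, whose product binds sodium channels, 25 of 32 lay below 0, at a sum of -0.25 ± 0.08, while the named locus changed by 0.09 ± 0.08. The sum was not called by itself (edgeR adjusted p = 0.379), and its difference from the named locus was (limma adjusted p = 0.0416).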
